A study of Arabidopsis thaliana with 6 samples.

Results

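RNA-directed DNA methylation (RdDM) is the plant pathway that places new DNA methylation with the help of small interfering RNAs (siRNAs). RNA polymerase IV (Pol IV) transcribes target loci, its transcripts are turned into siRNAs, and RNA polymerase V (Pol V) makes the scaffold transcripts to which siRNA-loaded ARGONAUTE proteins and then a DNA methyltransferase are brought. In pollen the pathway is known for silencing transposable elements, and the vegetative cell and the sperm cells are known to differ in how they methylate DNA. The 10 core genes described here were picked by gene identifier out of the 27655 genes of the deposited table, with earlier results of these libraries known. They are the polymerase subunits NRPD1, NRPE1 and NRPD2, the CLASSY chromatin remodelers CLSY1, CLSY3 and CLSY4, the DRD1, DMS3 and RDM1 proteins of the complex that Pol V needs on chromatin, and the methyltransferase DRM2.

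Sperm cells (SCs) and vegetative nuclei (VN) came from mature pollen of a wild type Arabidopsis thaliana line that carries 2 transgenes, MGH3p::MGH3-GFP, which marks SCs, and ACT11p::H2B-mRFP, which marks VN. Both groups therefore share the line and its transgenes, and 3 biological replicates were made of each. SCs were sorted as cells and VN as nuclei, so cell type and the part of the cell sampled cannot be told apart in any difference between them. Levels are in TPM, a transcript abundance that is scaled to gene length and to a library total of 1000000 and keeps no record of depth. The 10 most abundant genes held 42.83%, 47.85% and 49.88% of this total in the SC libraries, against 12.68%, 13.33% and 15.24% in VN. Less of the total was thus left for all other genes in SCs, and levels and fold changes are relative to it. In a library, 12418 to 15112 genes were above 0 TPM in SCs and 10202 to 15289 in VN. The fewest were in VN replicate 2, with 10202 against 15289 and 13649 in VN replicates 1 and 3. The 8 sperm cell markers, among them MGH3, GEX2, HAP2 and DUO1, summed to 8560 to 10100 TPM in SCs and 125 to 372 TPM in VN. The 11 vegetative cell markers, among them ACT11, VGD1 and ANX1, summed to 295 to 405 TPM in SCs and 12200 to 13200 TPM in VN, so the labels fitted the markers; only MYB120, a vegetative cell marker, was listed at 0 in all SC libraries. The 4 green tissue markers summed to at most 0.35 TPM in SCs and 3.79 TPM in VN. Of the 5 tapetum markers, 4 were listed at 0 in all SC libraries and 2, A9 and ATA7, in all VN libraries. The 5 genes summed to 0 to 0.607 TPM in SCs and 1.62 to 20.3 TPM in VN. Most of the VN sum came from DYT1, a tapetum transcription factor, at 18.3, 1.62 and 16.7 TPM. DYT1 was listed at 0 in all SC libraries. In VN, AMS was at 1.91, 0 and 1.60 TPM and MS1 at 0.134, 0 and 0 TPM. Whether the VN values below hold tapetum RNA was not tested.

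Most core RdDM genes were listed at very low levels in both SCs and VN, and CLSY4 was the exception. It was at 11.5, 10.7 and 10.03 TPM in the 3 SC libraries and made up 87.4%, 80.5% and 77.3% of the TPM summed over the 10 genes there. The other 9 genes together reached 1.66, 2.58 and 2.95 TPM in SCs. In VN the sum of all 10 genes was 1.54, 0.0198 and 6.89 TPM, and 4.88 TPM of the last of these came from DMS3 alone. In VN replicate 2, the library with the fewest genes above 0 TPM, every core gene but CLSY4 was listed at 0. Only CLSY4 averaged at least 1 TPM in SCs and only DMS3 in VN (1 of 10 genes in each), whereas 26.9% of all genes did so in SCs and 33.7% in VN. A low or zero TPM cannot separate fewer cells with the transcript, less RNA per cell and a transcript that the library missed. Even NRPB2, the second largest subunit of RNA polymerase II (Pol II), which every cell uses, was listed at 0 in 2 of the 3 SC libraries. A core gene at 0 is therefore only said to be listed at 0.

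**Figure D1:**
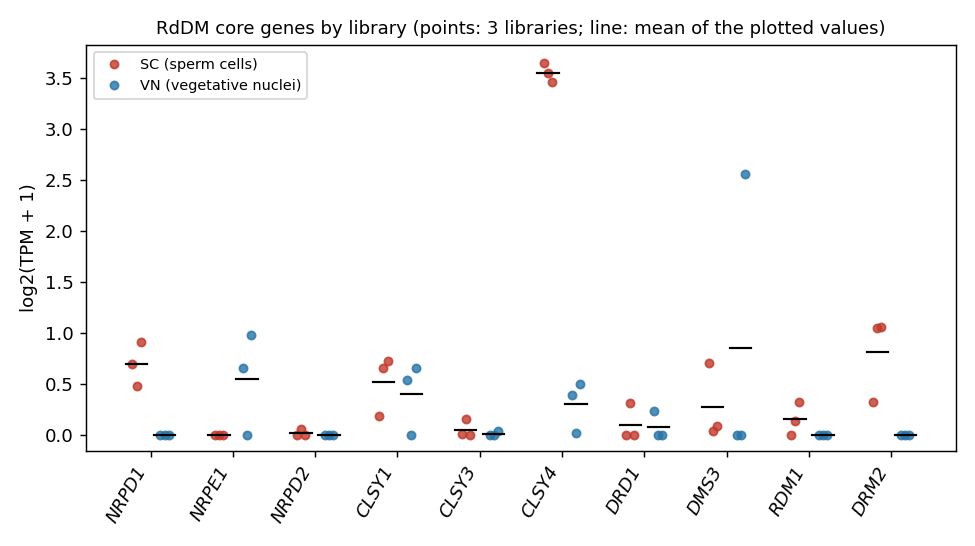
Level of each core RdDM gene as log2(TPM + 1) on the y axis, with the 10 genes on the x axis and the 3 SC (left, red) and 3 VN (right, blue) libraries as points; lines are means of the plotted values. The SC points of CLSY4 at 10.03 to 11.5 TPM stand above all other points, and a single VN point of DMS3 at 4.88 TPM is next.

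The difference between SCs and VN was tested with limma on log2(TPM + 1) over the 10955 genes with at least 1 TPM in at least 2 libraries, and a gene was called where the p-value, adjusted by Benjamini-Hochberg, fell below 0.01 and the log2 fold change (SC minus VN) exceeded 1 in size. Of the 10 core genes, 2 reached this filter, CLSY4 and DRM2, and the other 8 were too low to be tested. CLSY4 was called higher in SCs and DRM2 was not called. Over all genes tested, 29.2% were called higher in SCs and 35.6% higher in VN, and the median log2 fold change was -0.55. Without the filter, all 10 genes entered a fit of 22718 genes, in which again CLSY4 was the only call, and the median log2 fold change of the 10 genes was 0.08, against -0.08 over all 22718. The SC and VN ranges did not overlap for CLSY4, NRPD1 and DRM2, all higher in SCs, and for no core gene were they separate with VN higher. Among all genes above 0 TPM in any library, 19.8% were separate with SCs higher and 21.6% with VN higher.

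Pol IV is recruited to chromatin by the CLSY proteins, a family of 4 SNF2-type remodelers in which CLSY1 and CLSY2 form a pair that acts with the histone reader SHH1, and CLSY3 and CLSY4 a second pair. One promoter of each pair is shown, that of CLSY3 and that of CLSY2, as the 250 bases before the annotated gene start in the RefSeq TAIR10.1 sequence, 5′ to 3′ on the strand of the gene. Both come from the minus strand, at chr1:1623490-1623739 for CLSY3 and chr5:6904243-6904492 for CLSY2. Capitals mark CAGCCGT and TTTGGCGG, searched for with their reverse complements ACGGCTG and CCGCCAAA.
CLSY3: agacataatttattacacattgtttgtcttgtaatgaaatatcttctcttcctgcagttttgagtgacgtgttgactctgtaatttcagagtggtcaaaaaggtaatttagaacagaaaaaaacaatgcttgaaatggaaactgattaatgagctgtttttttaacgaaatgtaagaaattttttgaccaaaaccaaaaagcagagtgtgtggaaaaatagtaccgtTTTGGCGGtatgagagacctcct
CLSY2: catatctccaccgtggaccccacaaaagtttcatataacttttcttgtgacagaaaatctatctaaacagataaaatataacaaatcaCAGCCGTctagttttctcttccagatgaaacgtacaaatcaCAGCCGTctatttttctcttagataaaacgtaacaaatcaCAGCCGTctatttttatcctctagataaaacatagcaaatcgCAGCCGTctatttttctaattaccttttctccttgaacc

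TTTGGCGG, a form of the E2F transcription factor site, lay 23 bases before the start of CLSY3, counted to its first base, and was not in the CLSY2 window. Of 27443 protein-coding genes, 0.576% hold it in the same window on either strand. CAGCCGT stood 4 times in CLSY2, at 162, 121, 81 and 39 bases before the start, and not in CLSY3. The bases around it recur in near copies, so the 4 sites lie in a repeated stretch. Of all such windows, 0.853% hold CAGCCGT, counted for any copy and not for 4. These 2 motifs were picked after promoters had been read, do not overlap each other, and are a description of the letters only. AACCG, the core bound by the sperm MYB factor DUO1 (reverse complement CGGTT), was in neither window and is in 23.2% of all windows.

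CLSY4 (AT3G24340, chromosome 3, 8831935 to 8835829 in TAIR10.1, minus strand) overlaps no other annotated gene. Its level was 10.7 ± 0.747 TPM in SCs (SD, n = 3), which placed it above 88.3% of all genes there. The VN libraries had 0.319, 0.0198 and 0.42 TPM, so every SC library lay above every VN library and the ratio of the means was 42.5. On the log2 scale CLSY4 was higher in SCs by 3.24 with a standard error (SE) of 0.30, and limma gave an adjusted p of 2.13e-05. The call was kept in all 14 alternative settings, with a log2 fold change of 3.10 to 5.19.

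The low VN values of CLSY4 were set beside those of sperm cell markers. In VN replicates 1, 2 and 3, CLSY4 was at 2.97%, 0.184% and 3.91% of its SC mean. The 8 sperm cell markers had medians of 1.29%, 0.464% and 4.82% of their SC means in the same libraries, with ranges of 0.114% to 3.57%, 0.0618% to 3.18% and 0.681% to 19.7%. CLSY4 was thus within the range of the markers in each VN library, and the part of sperm RNA in its VN level was not tested.

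**Figure D2:**
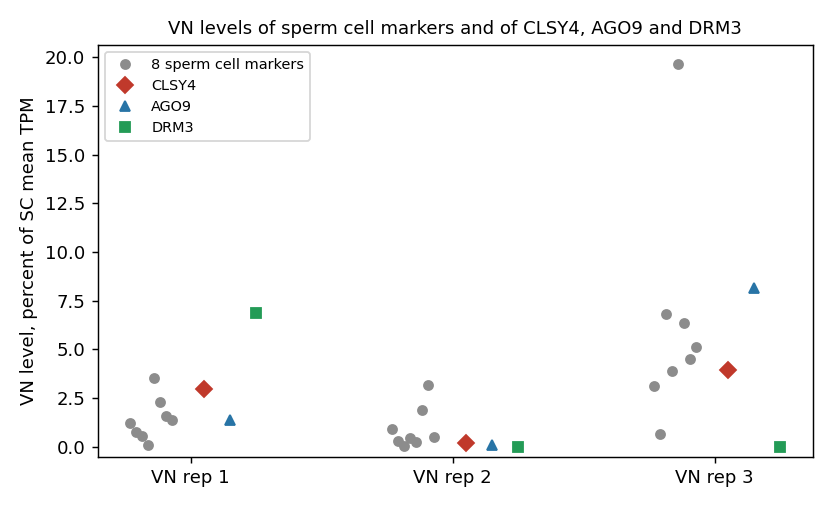
TPM in each VN library as a percent of the mean TPM in SCs (y axis), for the 8 sperm cell markers (grey circles), CLSY4, AGO9 and DRM3, by VN replicate (x axis). CLSY4 (2.97%, 0.184% and 3.91%) and AGO9 (1.36%, 0.106% and 8.14%) lie within the markers in each library, whereas DRM3 (6.86%, 0% and 0%) does not.

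CLSY3 (AT1G05490, chromosome 1, 1618504 to 1623489, minus strand), the paralogue of CLSY4 known for its activity in tapetum and ovules, was nearly absent from the values. It was at 0.00864, 0.115 and 0 TPM in SCs, against 0, 0 and 0.0305 TPM in VN. CLSY1 (AT3G42670, chromosome 3, 14755798 to 14760629, minus strand), which supplies Pol IV targets in leaves together with CLSY2, was at 0.139, 0.576 and 0.656 TPM in SCs and 0.461, 0 and 0.578 TPM in VN. The ranges of the cell types overlapped for both genes, and without the filter on low values neither was called (log2 fold change 0.04, adjusted p = 0.63 for CLSY3; 0.12, adjusted p = 0.762 for CLSY1, limma).

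CLSY2 (AT5G20420), the paralogue of CLSY1, is given beside the core genes as the remaining member of the family. It was at 0, 0.336 and 0 TPM in SCs and 1.30, 5.82 and 0.952 TPM in VN, all above the SC libraries, but with a log2 fold change of -1.51 (SE 0.51) and an adjusted p of 0.0251 from limma it was not called. Within a library, CLSY4 held 98.7%, 91.2% and 93.9% of the TPM summed over the 4 CLSY genes in SCs. In VN it held 15.3%, 0.339% and 21.2%, while CLSY2 held 62.6%, 99.7% and 48.1% of the sum, against 0%, 2.88% and 0% in SCs. The sum was 11.7, 11.7 and 10.7 TPM in SCs and 2.08, 5.83 and 1.98 TPM in VN. Such a share does not depend on how the rest of the library is scaled. The difference in share was 82.3 percentage points for CLSY4 and -69.2 for CLSY2, each with separate ranges and p = 0.1, the smallest that 3 libraries against 3 allow (exact permutation test, two-sided; adjusted p = 0.2 over the 4 genes). The shares of CLSY1 (-13.0 points, p = 0.4) and CLSY3 (-0.162 points, p = 1) overlapped by the same exact test.

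**Figure D3:**
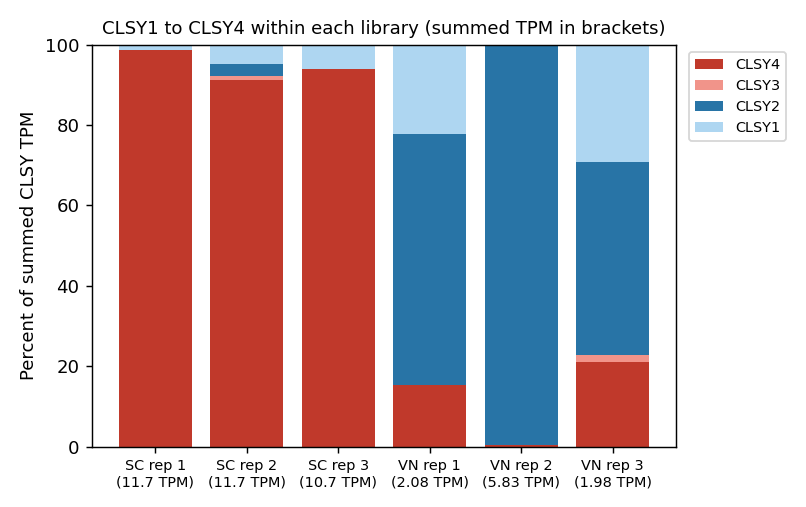
Share of each CLSY gene in the summed TPM of CLSY1 to CLSY4 (y axis, percent) in each of the 3 SC and 3 VN libraries (x axis, with the summed TPM). CLSY4 fills 91.2% to 98.7% of each SC bar, and CLSY2 fills 48.1% to 99.7% of each VN bar.

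Few reads of the CLSY genes could come from another gene. Of the exonic 31-base words in the annotation, 0% of CLSY4, 0% of CLSY3, 0.127% of CLSY1 and 0.124% of CLSY2 also occurred in exons of another gene. This is a property of the annotation and not of the assembly on which the authors estimated abundance.

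The largest subunit decides whether a polymerase is Pol IV or Pol V. NRPD1 (AT1G63020, chromosome 1, 23354685 to 23362589, minus strand), that of Pol IV, was at 0.626, 0.401 and 0.883 TPM in SCs and was listed at 0 in all 3 VN libraries. It was below the filter in every library. Without the filter it was not called, at a log2 fold change of 0.70 (SE 0.20) and an adjusted p of 0.0339 from limma. NRPE1 (AT2G40030, chromosome 2, 16714460 to 16723718, plus strand), that of Pol V, showed the other order, listed at 0 in all 3 SC libraries and at 0.58, 0 and 0.982 TPM in VN, where replicate 2 was also at 0. Without the filter it was not called either, at -0.55 on the log2 scale (SE 0.26, adjusted p = 0.182 from limma).

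The log2 ratio of NRPE1 to NRPD1, with 1 TPM added to each, was -0.70, -0.49 and -0.91 in SCs and 0.66, 0 and 0.99 in VN. In VN replicate 2 both genes were listed at 0, so its ratio of 0 comes from the added TPM alone. The means differed by -1.25 over all libraries, and by -1.52 without that library (exact permutation test, two-sided, p = 0.2, the smallest that 3 libraries against 2 allow). All values behind this ratio were below 1 TPM, and with 0.1 TPM added the difference was -4.89. NRPB1, the largest subunit of Pol II, was at 1.47, 3.02 and 2.58 TPM in SCs and 5.78, 8.33 and 6.42 TPM in VN. The log2 ratio of NRPD1 to NRPB1 was -0.61, -1.52 and -0.93 in SCs and -2.76, -3.22 and -2.89 in VN, a difference of 1.94 (exact permutation test, two-sided, p = 0.1), which was 4.37 with 0.1 TPM added. With NRPD1 at 0 in VN, the ratio there depends on NRPB1 and the added TPM alone.

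NRPD2 (AT3G23780, chromosome 3, 8567572 to 8574209, minus strand) encodes the second largest subunit that Pol IV and Pol V share. It was listed at 0 in 5 of the 6 libraries and at 0.0415 TPM in SC replicate 2. Of its exonic 31-base words, 20.4% also occur in other genes, chiefly its near copy NRPD2B (AT3G18090), which was listed at 0 in all SC libraries and at 0, 0 and 0.732 TPM in VN. How reads were divided between these copies is uncertain.

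DRD1, DMS3 and RDM1 form the complex that helps Pol V onto chromatin. DRD1 (AT2G16390, chromosome 2, 7097280 to 7101351, plus strand), its SNF2-type remodeler, was above 0 in 1 library of each cell type, with 0, 0.247 and 0 TPM in SCs and 0.179, 0 and 0 TPM in VN. RDM1 (AT3G22680, chromosome 3, 8017633 to 8020508, plus strand), a small protein that binds methylated DNA, was at 0, 0.0998 and 0.257 TPM in SCs and was listed at 0 in VN. DMS3 (AT3G49250, chromosome 3, 18255960 to 18260998, minus strand), a hinge-domain protein related to SMC proteins, was at 0.631, 0.0283 and 0.0627 TPM in SCs and 0, 0 and 4.88 TPM in VN. Its higher VN mean of 1.63 TPM thus rested on replicate 3 alone, where it was above every SC library. The SC and VN ranges overlapped for all 3 genes, and none was called without the filter (limma adjusted p of 0.864 for DRD1, 0.307 for RDM1 and 0.554 for DMS3).

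Reads of RDM1 and DMS3 were the least certain to assign of the 10 core genes. The annotated exons of RDM1 share 1899 bases with AT3G22670 on the opposite strand, and those of DMS3 share 2243 bases with AT3G49240, so 68.8% and 56.7% of their exonic 31-base words occur in the partner or another gene. Smart-seq2 does not record strand, and reads from such stretches cannot be told apart. AT3G22670 was listed at 0 in all 6 libraries. DRD1 shares 83 exonic bases with BLH7 (AT2G16400), and 1.74% of its 31-base words occur elsewhere; BLH7 was at 0, 0.291 and 0 TPM in SCs and 0, 0 and 0.017 TPM in VN. AT3G49240 (emb1796) was at 0.302, 0.592 and 0.477 TPM in SCs and 0.0915, 0 and 0 TPM in VN, so it was listed at 0 in VN replicate 3, where DMS3 was highest. Since reads of shared stretches cannot be told apart, a partner listed at 0 does not show which gene such reads came from.

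DRM2 (AT5G14620, chromosome 5, 4715105 to 4718704, minus strand), the methyltransferase at the end of the pathway, was at 0.256, 1.07 and 1.09 TPM in SCs and was listed at 0 in all 3 VN libraries. DRM2 was not called, at a log2 fold change of 0.81 (SE 0.34) and an adjusted p of 0.0546 from limma. Of the 11 alternative settings in which DRM2 was tested, 3 called it. These were without SC replicate 1, the lowest of the SC libraries (1.06, limma adjusted p = 0.00804), with 0.1 TPM added (2.98, adjusted p = 0.00674) and after centring each library on its median (1.33, adjusted p = 0.00836). With replicate number as a block, limma gave an adjusted p of 0.116. DRM2 passed the filter only through SC replicates 2 and 3. It was not tested without either of them, or with the filter at 3 libraries. DRM1, the second methyltransferase of this kind, was listed at 0 in SCs and at 0, 0 and 0.466 TPM in VN. DRM2 therefore made up all of the DRM1 and DRM2 TPM in SCs (100% in each library) and none of it in VN replicate 3, and no share exists in VN replicates 1 and 2, where both were listed at 0.

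In SCs the order by mean TPM was CLSY4, DRM2, NRPD1, CLSY1, DMS3, RDM1, DRD1, CLSY3, NRPD2 and NRPE1. Only CLSY4 was separate from its neighbour, with a lowest library of 10.03 TPM against a highest of 1.09 TPM for DRM2, and each of the other 8 neighbouring pairs overlapped. In VN the order was DMS3, NRPE1, CLSY1, CLSY4, DRD1 and CLSY3, with NRPD1, NRPD2, RDM1 and DRM2 listed at 0 in every library, and every neighbouring pair overlapped. CLSY4 was hence 1st of the 10 genes in SCs and 4th in VN.

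Among all genes tested, those nearest to CLSY4 by Euclidean distance of log2(TPM + 1) over the 6 libraries were CDS1 (AT1G62430, a CDP-diacylglycerol synthase gene, distance 0.37), REF6 (AT3G48430, a histone H3 lysine demethylase gene, 0.40) and the kinesin motor gene AT2G22610 (0.41). REF6 was at 12.1, 9.87 and 11.7 TPM in SCs and 0.0511, 0 and 0.441 TPM in VN. DMS3, the highest core gene in VN, was nearest to AT2G24170 (0.59), AT5G62865 (0.59) and AT1G06135 (0.62), each above 3 TPM in VN replicate 3 and listed at 0 in the other VN libraries. With 6 libraries in 2 groups, such a distance mostly reflects the level in each group.

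The rest of the pathway was described with 21 other RdDM genes, of which 9 passed the filter, 2 were called higher in SCs, 1 was called higher in VN and 6 were not called. The filter thus kept 42.9% of them, against 39.6% of all genes, and the calls stand beside the 29.2% and 35.6% of all tested genes called higher in SCs and in VN. AGO9 (AT5G21150), an ARGONAUTE that binds siRNAs and is known from the ovule, was by far the highest, at 141, 118 and 147 TPM in SCs and 1.84, 0.143 and 11.0 TPM in VN. AGO9 was called at 5.32 on the log2 scale (SE 0.74, adjusted p = 0.000257 from limma). Its VN values were 1.36%, 0.106% and 8.14% of its SC mean, within the range of the sperm cell markers in each library. DRM3 (AT3G17310), a DRM protein without catalytic activity of its own that assists DRM2, was at 8.67, 5.17 and 9.19 TPM in SCs and 0.527, 0 and 0 TPM in VN (2.88 on the log2 scale, SE 0.36, adjusted p = 0.000126 from limma). Its VN values were 6.86%, 0% and 0% of its SC mean, above the range of the sperm cell markers in replicate 1 and below it in replicates 2 and 3. DRM3 was above DRM2 in every SC library. DRM3 shares 70 exonic bases with EMB2786 on the opposite strand, which was listed at 0 in all libraries.

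MORC6 (AT1G19100), a GHKL-type ATPase that acts with the pathway in gene silencing, was the only RdDM gene of either list called higher in VN. MORC6 had levels of 0.0187, 0 and 0.235 TPM in SCs and 32.5, 43.8 and 30.9 TPM in VN. MORC6 was called at -5.07 on the log2 scale (SE 0.29, adjusted p = 1.55e-06 from limma). In SCs it was at 0.0522%, 0% and 0.656% of its VN mean. The vegetative cell markers had higher medians there, of 1.61%, 2.07% and 1.97% of their VN means. Their ranges (0% to 9.14%, 0% to 9.58% and 0% to 7.09%) start at 0% because MYB120 was listed at 0 in all SC libraries. No low value could therefore fall outside these ranges. CLSY4, AGO9, DRM3 and MORC6 kept their calls in every alternative setting.

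Between Pol IV and the ARGONAUTE proteins, HEN1 was tested and not called, and RDR2 and DCL3 were too low to be tested. Without the filter neither RDR2 nor DCL3 was called (limma adjusted p of 0.416 and 0.471). RDR2, which copies Pol IV transcripts into double strands, was at 0.492, 0.29 and 1.44 TPM in SCs and 0, 0 and 0.758 TPM in VN. DCL3, which cuts them into siRNAs, stayed at or below 0.144 TPM in SCs and 0.794 TPM in VN. HEN1, which methylates the ends of small RNAs, was at 0.0825, 0.00769 and 0 TPM in SCs and 2.79, 0.155 and 1.25 TPM in VN, and was called only without VN replicate 2 (log2 fold change -1.50, adjusted p = 0.00321). AGO4, the main RdDM ARGONAUTE of leaves, was listed at 0 in SCs and at 0.524, 0 and 0.331 TPM in VN, and AGO6 overlapped between SCs (0.0414 to 1.27 TPM) and VN (0 to 3.04 TPM). On the Pol V side, SUVH2, which binds methylated DNA and recruits Pol V, was at 2.18, 0.442 and 1.81 TPM in SCs and 0.549, 0 and 0 TPM in VN. Its partner SUVH9 was at 0.252, 0.481 and 0.819 TPM in SCs and 0.59, 5.24 and 3.10 TPM in VN. Neither was called (limma adjusted p of 0.0507 and 0.0634), but SUVH2 was called after centring (log2 fold change 1.54) and SUVH9 without VN replicate 1 (-1.76). DMS4, the remaining gene that passed the filter, was at 4.05, 3.20 and 1.99 TPM in SCs and 3.71, 0 and 1.92 TPM in VN.

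**Figure D4:**
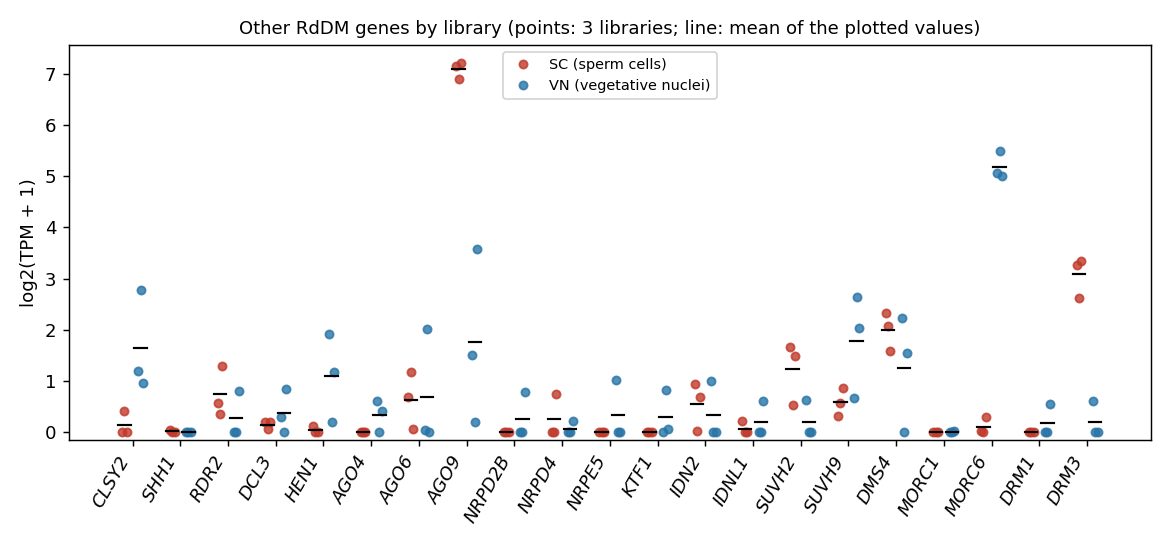
Level of the 21 other RdDM genes as log2(TPM + 1) on the y axis, with the genes on the x axis and the 3 SC (left, red) and 3 VN (right, blue) libraries as points; lines are means of the plotted values. AGO9 (118 to 147 TPM) and DRM3 (5.17 to 9.19 TPM) stand out in SCs and MORC6 (30.9 to 43.8 TPM) in VN.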

How the data were processed

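The authors aligned Smart-seq2 reads to TAIR10 (Hisat2), assembled and merged transcripts (StringTie), kept Araport11 gene names for the known ones and estimated abundance with Salmon. They deposited TPM per gene and library. How transcripts were summed into genes is not given in the sources used here. Each library sums to 1000000 TPM, so the deposited values hold no depth per library and no counts. The paper gives total reads for SCs and for VN, but not for each library. Counting error per gene therefore cannot be stated.

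Values were tested as log2(TPM + 1) with limma 3.58.1 in R 4.3.3 (empirical Bayes, mean-variance trend), with p-values adjusted over all 10955 genes tested. No count model was run, since TPM is not counts. Ratios and shares were compared with exact permutation tests over libraries. Members and gene lists were chosen with earlier results of these data known. All 10 core genes are named, as is each called gene of 21 other RdDM genes, with values for the largest changes, CLSY2 and DRM1, and the 3 genes nearest to the highest core gene of each cell type; other pathway values were chosen after being seen. Coordinates and sequences are from RefSeq TAIR10.1, which has the chromosomes of TAIR10; the table itself has none. Promoter sequences of the other core genes are not reported here.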

Additional observations from a re-analysis of the deposited data

How the results depend on the processing

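The number of core genes called was 2 (CLSY4 and DRM2) with a pseudocount of 0.1 and after centring on the median, and 1 to 2 as each library was left out. The other alternatives (no filter, at least 1 TPM in at least 3 libraries, quantile normalization, removal of the 10 most abundant genes, no trend) gave 1. The 21 other RdDM genes had 3 calls, and 3 to 4 under the alternatives. AGO6, not called, turned positive at 0.55 with a pseudocount of 0.1, 0.10 with quantile normalization, 0.47 after centring and 0.23 without the 10 most abundant genes, and had values of -0.39 to 0.24 when 1 library at a time was omitted. The CLSY3 share difference lay between -0.476 and 0.352 percentage points with 1 library omitted, and was above 0 without SC replicate 3 (0.0142) and without VN replicate 3 (0.352). NRPB1 lost its call in 12 of 14 alternatives. Quantile normalization moved the median log2 fold change of all tested genes to -0.13 and centring to -0.03, from -0.55 as deposited. Removal of the 10 most abundant genes moved it to 0.01. Centring took CLSY2 from -1.51 to -0.99 and HEN1 from -1.06 to -0.54, neither called. Without the 10 most abundant genes they were at -1.54 and -1.13. The replicate block gave 6927 calls over all genes, against 7105 without it, and 1 among the core genes. Same-numbered libraries did not deviate together (r of 0.009, -0.035 and -0.019 across genes). The labels do not say whether such libraries came from the same pollen, and these correlations cannot decide it. No alternative for the DRM2 share could be computed, because 2 VN libraries have none. Without counts per gene, the number of reads behind values under 1 TPM is not known.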

Other observations

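Subunits of the RNA polymerases were also compared as a wider group, chosen after values of the core genes had been seen by the names NRPB, NRPD and NRPE in the authors' table. Of the 26 genes, 15 passed the filter, of which 7 were called higher in SCs, 2 higher in VN and 6 were not called (limma, same thresholds), beside 29.2% of all tested genes called higher in SCs and 35.6% higher in VN. The genes higher in VN were NRPB1 and NRPB2, the catalytic subunits of Pol II. NRPD1, NRPE1, NRPD2 and NRPD2B did not pass the filter, so every other tested gene encodes a smaller subunit. Any call higher in SCs thus had to fall on a smaller subunit unless it fell on NRPB1 or NRPB2. The call of NRPB1 (log2 fold change -1.24) was lost in 12 of 14 alternatives, with values of -0.74 to -0.72 under quantile normalization, centring and removal of the 10 most abundant genes. NRPB2 was at 0, 0.0693 and 0 TPM in SCs and 7.73, 3.24 and 7.11 TPM in VN (log2 fold change -2.71, standard error 0.37, adjusted p = 0.000226). The genes higher in SCs encode small subunits, such as NRPB6B (AT2G04630), at 123, 100 and 86.2 TPM in SCs and 9.53, 2.38 and 6.56 TPM in VN (log2 fold change 4.0, standard error 0.42, adjusted p = 4.78e-05), and AT4G14520, named NRPB7L, at 49.0, 42.1 and 41.9 TPM in SCs and 1.03, 0.693 and 1.29 TPM in VN (log2 fold change 4.51, standard error 0.26, adjusted p = 1.78e-06). NRPE7 (AT4G14660), the Pol V form of the seventh subunit, was at 0.901, 1.94 and 4.41 TPM in SCs and listed at 0 in VN (limma adjusted p = 0.00778). The SC libraries listed NRPE1, the largest subunit of Pol V, at 0. The call of NRPE7 was not followed through the alternatives. NRPD7 (AT3G22900) was at 3.85, 0.0614 and 1.74 TPM in SCs and also listed at 0 in VN, and was not called (limma adjusted p = 0.0598).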
